A study of Mus musculus with 12 samples.

Results

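Prox1, C1ql2, C1ql3, Dsp, Tdo2, Calb1, Plk5 and Trpc6 are genes used to recognise the granule neurons of the dentate gyrus in mouse hippocampus. The 8 genes were taken by name from a count table of 24384 genes, and all 8 were among the 16618 genes with enough counts to be tested. They were read in 12 libraries of polyadenylated hippocampal RNA in 3 groups of 4, namely rTg4510 mice given 3TC, untreated rTg4510 mice, and littermate controls. As background, rTg4510 mice carry a mutant human tau transgene that forebrain neurons express through a CaMKII alpha-driven transactivator, and insertion of the transgenes disrupted mouse genes in this line, so a difference between transgenic mice and littermates is not set to tau alone. 3TC (lamivudine) is a nucleoside inhibitor of reverse transcriptase, and the series title asks how it alters the hippocampal transcriptome of these mice. Each group has 2 female and 2 male libraries in the labels, and libraries are named here by their sex and number in the labels. The sources used here do not give the genotype of the littermates, the age, the dose, its duration or any vehicle. They also do not say whether libraries came from different animals, and p-values therefore cover only the spread among libraries.

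Granule neurons are the principal cells of the dentate gyrus. They receive the perforant path from entorhinal cortex, send mossy fibres to CA3 and are added to in adult life from local precursors. Prox1 is the homeobox transcription factor that sets and keeps granule neuron identity, C1ql2 and C1ql3 are secreted C1q-like proteins that organise mossy fibre synapses, Calb1 (calbindin) buffers calcium, and Trpc6 is a cation channel. Dsp (desmoplakin) links desmosomes to intermediate filaments in epithelia, Tdo2 (tryptophan 2,3-dioxygenase) opens the kynurenine pathway, and Plk5 belongs to the polo-like kinases. None is exclusive to granule neurons. Prox1 is also made by some interneurons, and calbindin by pyramidal neurons and by cells of cortex and striatum.

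The promoters of Prox1, C1ql2 and Dsp are shown because Prox1 is the identity factor of these neurons, and Dsp and C1ql2, the members with the most negative log2 fold changes, had the highest Pearson correlations with it over all 12 libraries, an order that did not hold for C1ql2 without rTg4510 F3. Each is the 250 bases before the RefSeq start on GRCm38.p6, written 5′ to 3′ on the strand of the gene. Capitals mark matches on either strand to the motifs searched, which were an E-box spelled CAGCTG, another E-box spelled CAGATG, a further E-box spelled CACGTG, the cyclic AMP response element TGACGTCA, the TATA box as TATAAA and a GC box as CCGCCC.
Prox1 promoter, chr1:190170828-190171077, minus strand: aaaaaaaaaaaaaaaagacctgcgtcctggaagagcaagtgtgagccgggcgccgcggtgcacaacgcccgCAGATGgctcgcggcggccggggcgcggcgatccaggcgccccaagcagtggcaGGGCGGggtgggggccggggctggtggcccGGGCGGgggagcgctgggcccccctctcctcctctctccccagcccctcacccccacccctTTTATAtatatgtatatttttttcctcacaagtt
C1ql2 promoter, chr1:120340332-120340581, plus strand: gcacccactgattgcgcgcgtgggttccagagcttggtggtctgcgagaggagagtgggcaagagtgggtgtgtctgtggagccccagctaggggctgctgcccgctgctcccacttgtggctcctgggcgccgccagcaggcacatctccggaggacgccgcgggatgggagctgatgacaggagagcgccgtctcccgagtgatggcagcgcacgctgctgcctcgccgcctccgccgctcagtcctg
Dsp promoter, chr13:38151044-38151293, plus strand: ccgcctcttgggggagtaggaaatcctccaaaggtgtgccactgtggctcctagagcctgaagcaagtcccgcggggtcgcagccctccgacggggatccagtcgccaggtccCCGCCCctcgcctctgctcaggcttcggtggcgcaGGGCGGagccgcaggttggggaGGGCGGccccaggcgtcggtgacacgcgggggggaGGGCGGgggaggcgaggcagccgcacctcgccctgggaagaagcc

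No motif was held by all 3 promoters. The Prox1 window had 1 CAGATG, 1 TATAAA and 2 CCGCCC, and the Dsp window had 4 CCGCCC. The C1ql2 window had none of the 6 motifs. Of 32851 RefSeq promoter windows of this length, 14.4% held CAGATG, 12.4% TATAAA and 32.7% CCGCCC, while CAGCTG was in 13%, CACGTG in 6.02% and TGACGTCA in 1.55%. Among the other members with a RefSeq entry, a further Prox1 start had 1 CCGCCC, C1ql3 had 2, Plk5 had 4 (3 of which overlap by 1 base), Tdo2 had 1 TATAAA and Trpc6 had none. A match is a description of letters, not a binding site.

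The 8 genes lie on 7 chromosomes (mm10, GENCODE M21). Prox1 spans chr1:190118035-190170714 on the minus strand, and C1ql2 spans chr1:120340582-120343174 on the plus strand. C1ql3 is at chr2:13003457-13011806 (minus), Dsp at chr13:38151294-38198577 (plus) and Tdo2 at chr3:81957090-81976202 (minus). Calb1 is at chr4:15881264-15908064, Plk5 at chr10:80356459-80365489 and Trpc6 at chr9:8544142-8680741, all on the plus strand. Annotated transcripts on the opposite strand overlap Prox1 (Prox1os), C1ql3 (Gm37824 and Gm37811) and Dsp (Gm10129). Whether counting used strand is not stated in the sources used, and reads of those transcripts cannot be told apart from reads of the genes.

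Libraries held 27351630 to 35357415 counts in rTg4510+3TC, 29732904 to 36112922 in rTg4510 and 27286787 to 58173678 in littermates. Counts of sex-linked genes went against the sex labels of 2 of the 12 libraries, littermates F3 and M3, and sex was therefore left out of the fit. Markers of neighbouring tissue stood out in 3 libraries, on a score that is the mean log2 deviation of a list's genes from their average over the 12 libraries. rTg4510+3TC F2 scored 2.02 on thalamic markers, against -0.55 to 0.82 in the other 11. rTg4510 F3 scored 1.31 on neocortical and 1.35 on striatal markers, and littermate M2 scored 1.1 on neocortical markers. Littermate F1 had the next highest scores on thalamic (0.82) and striatal (0.61) markers and was not counted among these 3. Choroid plexus markers were high in rTg4510 M1, littermate F1 and littermate F3 (scores of 2.72 to 3.70). Some fold changes of the 8 genes are also given below without these libraries. The ratios to Prox1 are given per library, and medians of gene lists are from all 12 libraries unless stated.

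Across the 12 libraries the members were of unequal abundance. Per kilobase of exon, littermate means were 30.6 ± 10.5 CPM per kb for C1ql2, 26.5 ± 4.37 for C1ql3 and 22.0 ± 2.27 for Calb1 (SD, n = 4; CPM are counts scaled by TMM to library size). Prox1 (7.22 ± 2.58), Plk5 (7.14 ± 1.34), Dsp (5.996 ± 2.21) and Trpc6 (3.27 ± 0.642) followed, and Tdo2 had the lowest level at 1.46 ± 0.777 CPM per kb. Neighbours in this order differed by less than 1 SD for C1ql2 and C1ql3 and among Prox1, Plk5 and Dsp.

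In both transgenic groups Prox1, C1ql2, Dsp and Trpc6 averaged below littermates, by log2 fold changes between -0.59 and -1.44, while Calb1 and Tdo2 differed by at most 0.32. C1ql3 averaged below littermates in 3TC-treated mice (-0.67) and less so in untreated rTg4510 (-0.13, or -0.30 without rTg4510 F3), and Plk5 averaged above littermates in untreated rTg4510. None of these differences passed the test: edgeR's quasi-likelihood test over all 16618 genes called 0 of the 8 members at an adjusted p under 0.05 in each of 4 comparisons. These were rTg4510 with littermates, rTg4510+3TC with littermates, rTg4510+3TC with rTg4510, and all 8 transgenic libraries with littermates. DESeq2's Wald test and limma-voom also called 0 of 8 in each. The genes called over the whole table were 5 (0.0301% of those tested), 8 (0.0481%), 0 (0%) and 8 (0.0481%), in the same order of comparisons. Where edgeR called 0 genes, 635 had an unadjusted p under 0.05 and DESeq2 called 1. In bulk tissue, fewer granule neurons, less RNA per granule neuron and a larger share of neighbouring tissue in a library cannot be told apart.

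**Figure D1:**
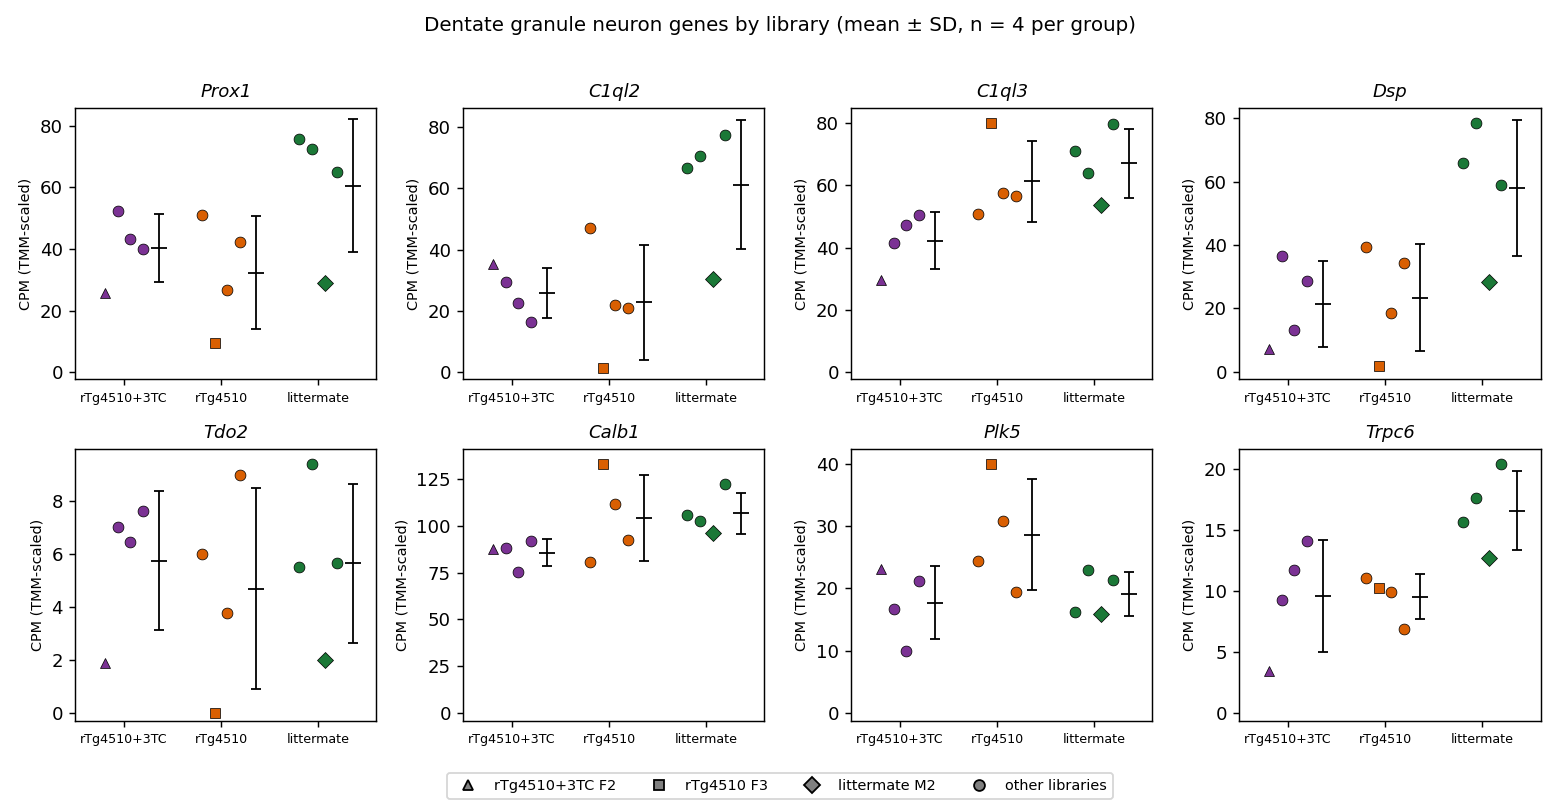
Level of each of the 8 genes in every library, in TMM-scaled CPM on a linear axis, with the group mean and SD (n = 4) beside the points. Triangles, squares and diamonds mark rTg4510+3TC F2, rTg4510 F3 and littermate M2, the libraries with neighbouring-tissue markers; littermate M2 is the lowest littermate for every gene.

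Prox1 was at 25.8, 52.3, 43.2 and 39.9 CPM in rTg4510+3TC (F2, F3, M2, M3), at 50.9, 9.52, 26.6 and 42.4 CPM in rTg4510 (F2, F3, M1, M3), and at 75.8, 72.6, 28.9 and 65.2 CPM in littermates (F1, F3, M2, M3). The libraries of every group overlap because littermate M2 lies among the transgenic libraries, while the other 3 littermates are above all 8 transgenic ones. The rTg4510 mean was 32.4 ± 18.2 CPM, against 60.6 ± 21.6 CPM in littermates (SD, n = 4 each). Relative to littermates rTg4510 was at a log2 fold change of -0.91 ± 0.42 (SE; edgeR adjusted p = 0.953). In rTg4510+3TC the mean was 40.3 ± 11.01 CPM, -0.59 ± 0.42 relative to littermates (adjusted p = 0.726 by edgeR).

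C1ql2, the C1q-like protein that granule neurons place at mossy fibre synapses, was at 35.3, 29.3, 22.4 and 16.5 CPM in rTg4510+3TC, at 47.1, 1.17, 21.9 and 20.9 CPM in rTg4510 and at 66.6, 70.6, 30.5 and 77.5 CPM in littermates. Of the 8 transgenic libraries, 6 lay below all 4 littermates. The log2 fold change was -1.43 ± 0.65 for rTg4510 against littermates (edgeR adjusted p = 0.945) and -1.24 ± 0.65 for rTg4510+3TC against littermates (adjusted p = 0.630). Over all transgenic libraries it was -1.34 ± 0.53, with a 95% interval of -2.49 to -0.19 (edgeR adjusted p = 0.580).

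Dsp was at 7.11, 36.5, 13.1 and 28.7 CPM in rTg4510+3TC, at 39.2, 1.68, 18.4 and 34.1 CPM in rTg4510 and at 65.9, 78.6, 28.3 and 58.9 CPM in littermates. As for Prox1, littermate M2 overlaps the transgenic libraries and the other 3 littermates exceed them all. Fitted log2 fold changes of Dsp were -1.31 ± 0.68 in rTg4510 and -1.44 ± 0.69 in rTg4510+3TC, both against littermates (edgeR adjusted p = 0.965 and 0.595). For rTg4510+3TC against rTg4510 it was -0.13 ± 0.68, and the 95% interval of -1.60 to 1.34 leaves room for a difference of over 1 log2 unit in either direction.

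Trpc6 was at 3.42, 9.26, 11.7 and 14.1 CPM in rTg4510+3TC, at 11.1, 10.3, 9.91 and 6.93 CPM in rTg4510 and at 15.7, 17.6, 12.7 and 20.4 CPM in littermates. All 4 rTg4510 libraries lay below all 4 littermates, which 1.72% of tested genes also did, and 7 of 8 transgenic libraries did so in all. The log2 fold change was -0.80 ± 0.32 for rTg4510 against littermates (edgeR adjusted p = 0.945) and -0.79 ± 0.32 for rTg4510+3TC against littermates (adjusted p = 0.529). Trpc6 was the member in which rTg4510 F3 did not stand apart from the rest of its group.

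C1ql3, the close relative of C1ql2, was at 29.5, 41.5, 47.2 and 50.6 CPM in rTg4510+3TC, at 50.8, 80.2, 57.7 and 56.5 CPM in rTg4510 and at 71.0, 64.0, 53.6 and 79.8 CPM in littermates. All 4 treated libraries were below every library of both other groups. Against rTg4510 this was a near tie, at 50.6 CPM in rTg4510+3TC M3 and 50.8 CPM in rTg4510 F2. Groups failed to overlap in this direction for 2.91% of tested genes in rTg4510+3TC against littermates and for 1.21% in rTg4510+3TC against rTg4510. Treated libraries were at a log2 fold change of -0.67 ± 0.18 against littermates (edgeR adjusted p = 0.336) and -0.54 ± 0.18 against rTg4510 (edgeR adjusted p = 0.9998). Untreated rTg4510 differed from littermates by -0.13 ± 0.18. The library highest for C1ql3 was rTg4510 F3, and without it the untreated difference from littermates was -0.30 ± 0.17 and the difference of treated from untreated mice -0.38 ± 0.17. Without the 3 libraries with neighbouring-tissue markers these were -0.38 ± 0.10 and -0.25 ± 0.10, neither called by edgeR.

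Calb1 was at 87.4, 87.9, 75.3 and 91.8 CPM in rTg4510+3TC, at 80.4, 132.8, 111.5 and 92.6 CPM in rTg4510 and at 105.8, 102.3, 96.3 and 122.0 CPM in littermates. The treated libraries again lay below all littermates, and the log2 fold change was -0.32 ± 0.14 (edgeR adjusted p = 0.548). Untreated rTg4510 spanned the littermates on both sides, with a log2 fold change of -0.03 ± 0.14 and a 95% interval of -0.33 to 0.26.

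Plk5 was at 23.1, 16.7, 9.92 and 21.2 CPM in rTg4510+3TC, at 24.4, 39.9, 30.9 and 19.4 CPM in rTg4510 and at 16.2, 23.0, 15.9 and 21.4 CPM in littermates. It was the member with a higher group mean in rTg4510 than in littermates, with a log2 fold change of 0.59 ± 0.26 (edgeR adjusted p = 0.945) and 3 of 4 rTg4510 libraries above every littermate. Treated mice were at -0.69 ± 0.26 relative to rTg4510 (edgeR adjusted p = 0.9998), with groups that overlap.

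Tdo2 was at 1.90, 7.03, 6.46 and 7.66 CPM in rTg4510+3TC, at 6.003, 0, 3.78 and 9.02 CPM in rTg4510 and at 5.52, 9.41, 2.03 and 5.68 CPM in littermates. Its groups overlapped throughout. The 0 in rTg4510 F3 allows a level of up to 3 counts, or 0.0855 CPM (counting error only). Against littermates the 95% interval ran from -2.10 to 1.57 log2 units in rTg4510 and from -1.80 to 1.86 in rTg4510+3TC. These intervals leave room for a Tdo2 difference of any size within their bounds.

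**Figure D2:**
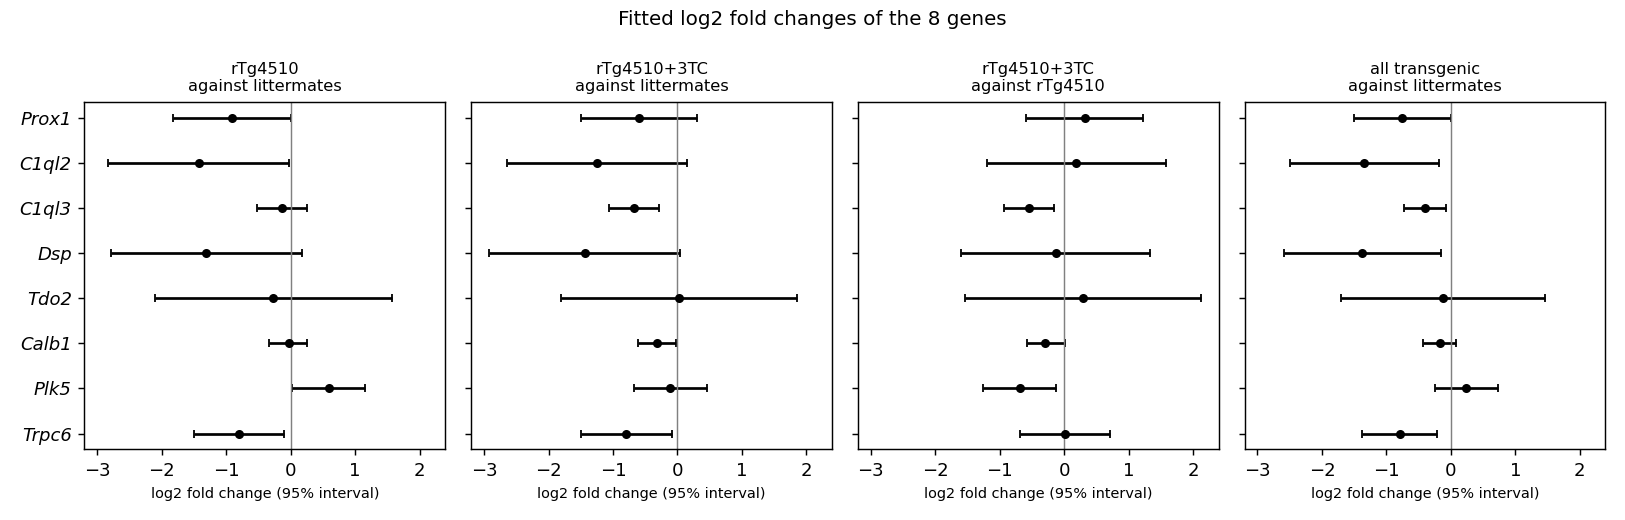
Fitted log2 fold change of each gene in the 4 comparisons, with 95% intervals from the edgeR fit of all 12 libraries; the group named first is on top of the ratio and the vertical line marks no difference. Dsp and C1ql2 lie furthest below 0 against littermates, and the intervals of Tdo2, Dsp and C1ql2 are the widest.

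Before adjustment, 3 of the 8 members (C1ql2, Plk5 and Trpc6) had p under 0.05 in rTg4510 against littermates, where 5.24% of all tested genes did. In rTg4510+3TC against littermates they were C1ql3, Calb1 and Trpc6 (3 of 8, against 8.59% of genes), and in rTg4510+3TC against rTg4510 they were C1ql3 and Plk5 (2 of 8, against 3.82%). Over all transgenic libraries they were C1ql2, C1ql3, Dsp and Trpc6 (4 of 8, against 8%). The comparisons share libraries, so these counts are not independent of each other. The 8 genes were read in the same libraries and some vary together, so they are not independent values either. The log2 fold change was negative for 7, 7, 4 and 7 of the 8 members, against 50.2%, 50.9%, 50.2% and 51.4% of all tested genes, and its median over the members was -0.53, -0.63, -0.06 and -0.57. The median over all tested genes was within 0.01 of 0 in each.

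The rTg4510 F3 library stood furthest from the rest of its group. It had the lowest level of all 12 libraries for Prox1, C1ql2, Dsp and Tdo2 and the highest for C1ql3, Calb1 and Plk5. C1ql2 was represented by 41 counts and Dsp by 59 counts, and the other 3 rTg4510 libraries averaged 25.6 times as much C1ql2, 18.2 times as much Dsp and 4.20 times as much Prox1. Its C1ql3, Calb1 and Plk5 levels were 1.46, 1.40 and 1.60 times the mean of those 3. In the same library the summed level of 7 neocortical genes was 926.4 CPM, against 303.4 to 406.8 CPM in the other rTg4510 libraries, and the summed level of 10 striatal genes was 503.5 CPM, against 187.6 to 313.7 CPM. Scores of CA3 pyramidal neuron markers (-0.98), of newborn neuron and precursor markers (-1.12) and of myelin (-1.09) were the lowest of its group. The part of these differences in the member levels was not tested. Without rTg4510 F3 the log2 fold changes against littermates were -0.61 ± 0.32 for Prox1, -1.04 ± 0.36 for C1ql2, -0.93 ± 0.49 for Dsp, 0.15 ± 0.50 for Tdo2, -0.30 ± 0.17 for C1ql3, -0.18 ± 0.12 for Calb1, 0.37 ± 0.25 for Plk5 and -0.84 ± 0.36 for Trpc6, and edgeR again called none of the 8.

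**Figure D3:**
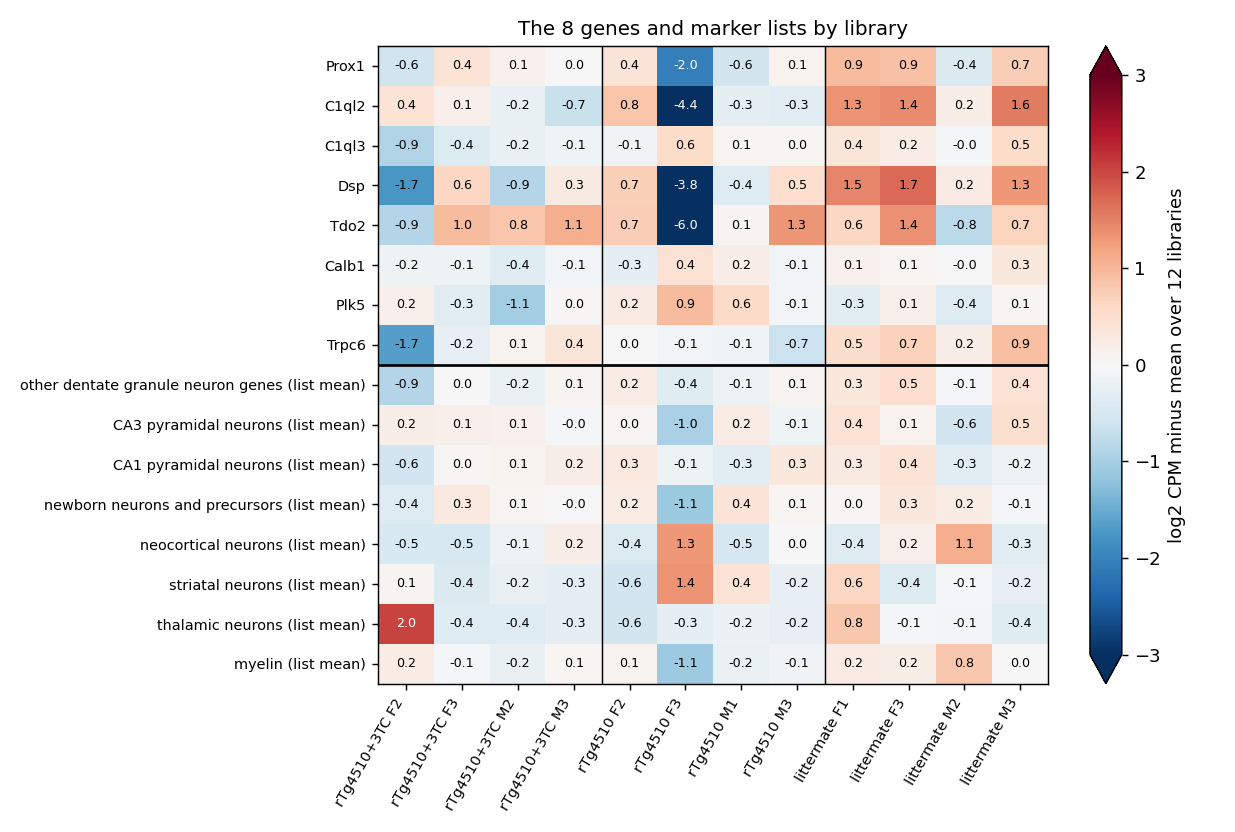
Log2 deviation of each gene (upper 8 rows) and of the mean of each marker list (lower rows) from its average over the 12 libraries, by library; red is above average and blue below, and colours saturate at 3. rTg4510 F3 is below average for Prox1, C1ql2, Dsp and Tdo2 and above average for C1ql3, Calb1, Plk5 and the neocortical and striatal lists.

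The calls depended on which libraries were kept. Leaving out the 3 libraries with markers of thalamus, striatum or neocortex, edgeR called 4 of the 8 members lower in the transgenic libraries as a whole, where it called 0.645% of genes in either direction. Littermate F1, with the next highest thalamic and striatal scores, was kept in that fit. C1ql2 was at -1.45 ± 0.22 on the log2 scale (adjusted p = 0.0105) and C1ql3 at -0.50 ± 0.09 (adjusted p = 0.0187). Dsp was at -1.26 ± 0.26 (adjusted p = 0.0496) and Prox1 at -0.75 ± 0.15 (adjusted p = 0.0494). In rTg4510+3TC against littermates 2 members were called, C1ql2 at -1.65 ± 0.27 (adjusted p = 0.0193) and C1ql3 at -0.63 ± 0.10 (adjusted p = 0.0157), where 0.424% of genes were. Neither rTg4510 against littermates (0.215% of genes called) nor rTg4510+3TC against rTg4510 (0%) had a member called.

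Those calls were lost when littermate M2 was kept. It was the lowest littermate for all 8 genes, so its removal raises the littermate mean of each. With all 4 littermates kept and only rTg4510 F3 and rTg4510+3TC F2 left out, edgeR called 0 members in every comparison. The genes called were 0.0832% in rTg4510 against littermates, 0.155% in rTg4510+3TC against littermates, 0% in rTg4510+3TC against rTg4510 and 0.226% over all transgenic libraries. C1ql2 was then at -1.23 ± 0.28 (adjusted p = 0.142), C1ql3 at -0.41 ± 0.10 (adjusted p = 0.196), Dsp at -1.04 ± 0.31 (adjusted p = 0.275) and Prox1 at -0.51 ± 0.24 (adjusted p = 0.481). Without rTg4510 F3 and littermate M2 alone no member was called either (0.0356%, 0.0416%, 0% and 0.119% of genes in the same order), with C1ql2 nearest over all transgenic libraries at an adjusted p of 0.0822. Without the 3 libraries high in choroid plexus markers, which include 2 littermates, edgeR called no gene in any comparison (911 had an unadjusted p under 0.05 over all transgenic libraries), and C1ql2 was at -1.15 ± 0.78 over all transgenic libraries.

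**Figure D4:**
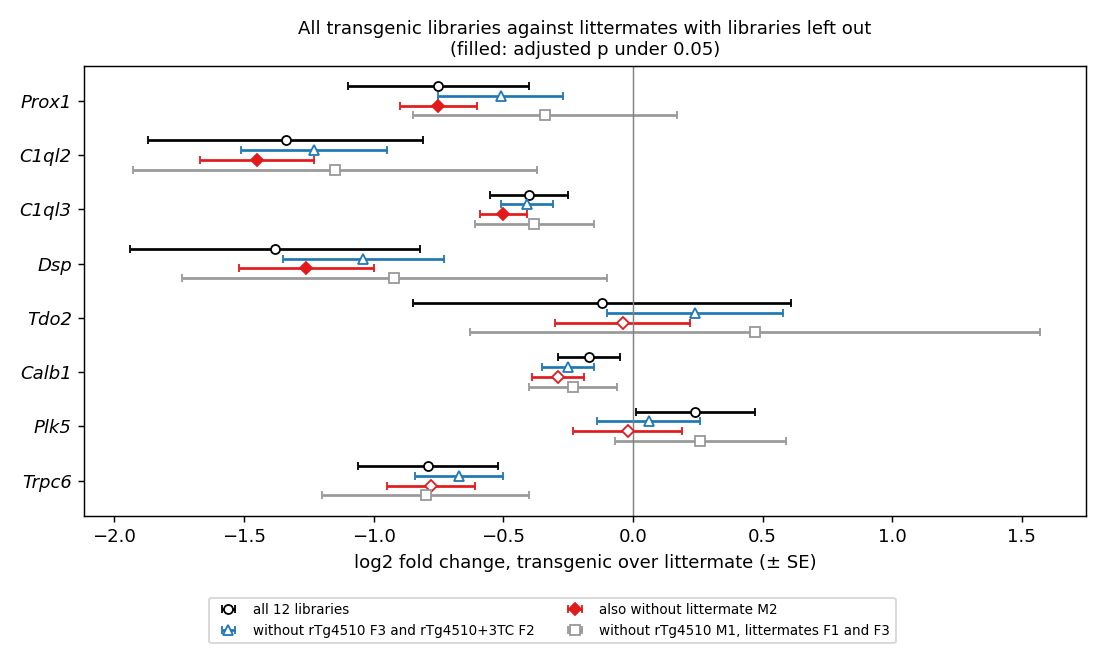
Log2 fold change of all transgenic libraries against littermates for each gene (bars are SE) with all 12 libraries and under 3 choices of libraries to leave out. Filled symbols had an adjusted p under 0.05, and these are 4 genes in the fit that leaves out all 3 libraries with neighbouring-tissue markers.

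Across libraries the members did not vary as 1 group. With Prox1, the log2 level correlated at r = 0.93 for Dsp (permutation p adjusted over 7 relations = 0.00042), 0.89 for C1ql2 (0.00266) and 0.88 for Tdo2 (0.00256), with n = 12. Spearman's rho was 0.92, 0.70 and 0.58 for these 3 (adjusted permutation p = 7e-04, 0.04998 and 0.0914). The correlation with Trpc6 was 0.45 (adjusted permutation p = 0.196; rho 0.60, p = 0.0914). Those with C1ql3, Calb1 and Plk5 were 0.03, -0.33 and -0.55 (adjusted permutation p = 0.924, 0.342 and 0.125), and rho was 0.17, -0.03 and -0.41 (p = 0.689, 0.920 and 0.259). Leaving out the 2 libraries furthest from the median of Prox1, rTg4510 F3 and littermate F1, gave r = 0.81 for Dsp, 0.77 for Tdo2, 0.64 for Trpc6, 0.61 for C1ql2, 0.54 for C1ql3, 0.13 for Calb1 and -0.10 for Plk5. The relations of C1ql3, Calb1 and Plk5 with Prox1 moved most with these 2 libraries, and that of C1ql2 was weaker without them. Libraries of a group share genotype and treatment, so the relations are not free of the group differences.

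The mean log2 deviation of the 8 genes gave a score per library of -0.67 to 0.13 in rTg4510+3TC, -1.80 to 0.32 in rTg4510 and -0.13 to 0.82 in littermates. Of 14386 other genes with a mean of at least 1 CPM, the 6 whose log2 level followed this score most closely over the 12 libraries were Dock10 (r = 0.985), Foxo1 (0.968), Ss18 (0.962), Ehd1 (0.953), Npy2r (0.951) and Zhx2 (0.928). They were chosen for this likeness, so no test applies. Without rTg4510 F3 their r was 0.958, 0.949, 0.914, 0.942, 0.878 and 0.787. Dock10, a guanine nucleotide exchange factor of the dedicator of cytokinesis family, was at 55.3, 70.0, 63.7 and 83.2 CPM in rTg4510+3TC, at 83.0, 31.4, 71.9 and 78.01 CPM in rTg4510 and at 103.5, 100.1, 75.4 and 103.8 CPM in littermates.

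Counts were also set against those of Prox1 in the same library. The Dsp to Prox1 ratio was 0.276, 0.699, 0.303 and 0.719 in rTg4510+3TC, 0.770, 0.177, 0.690 and 0.806 in rTg4510, and 0.869, 1.08, 0.979 and 0.904 in littermates. All 8 transgenic libraries lay below all 4 littermates, including littermate M2, whose ratio was among the higher. Of the 7 members other than Prox1, Dsp alone showed this, and 0.012% of tested genes did. The C1ql2 to Prox1 ratio spanned 0.414 to 1.37 in rTg4510+3TC, 0.123 to 0.926 in rTg4510 and 0.878 to 1.19 in littermates. Prox1 was chosen for the ratio after the values had been seen, and Prox1 is not limited to granule neurons. Relative to 15 other dentate genes taken in its place, Dsp was lower in all 8 transgenic libraries for Lct and Synpr only. For Lct this was a near tie, with the highest transgenic and the lowest littermate ratio both at 1.63 after rounding. The Dsp ratio was undefined in 1 library for Tdo2, and overlapped the littermates for the other 12. The ratio is given without a test.

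**Figure D5:**
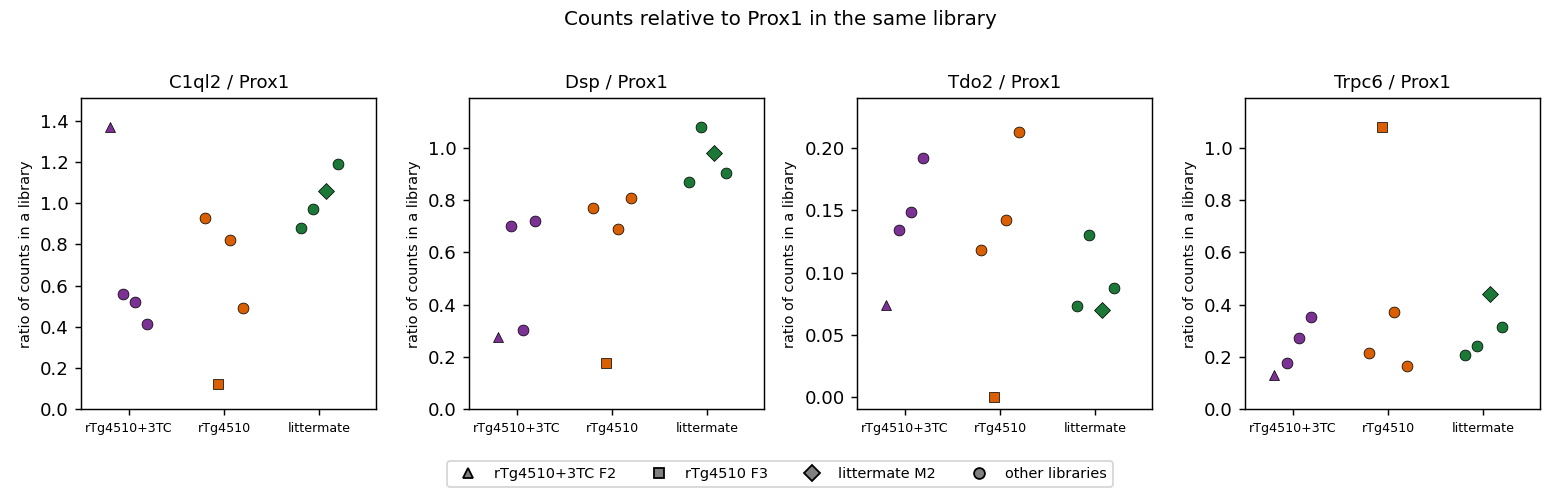
Counts of C1ql2, Dsp, Tdo2 and Trpc6 divided by the counts of Prox1 in the same library, on linear axes that differ between panels. The Dsp ratio is 0.806 or less in every transgenic library and 0.869 or more in every littermate, while the other ratios overlap between groups.

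A list of 9 other dentate granule neuron genes (Lct, Stxbp6, Dock10, Maml2, Synpr, Fam163b, Glis3, Rfx3 and Pitpnm2) had 0 members called by edgeR in each comparison. The log2 fold change was negative for 7 of 9 in rTg4510 against littermates (median -0.35), for 9 of 9 in rTg4510+3TC against littermates (median -0.49), for 7 of 9 in rTg4510+3TC against rTg4510 (median -0.29) and for 8 of 9 over all transgenic libraries (median -0.43). Before adjustment 3, 4, 1 and 5 of them had p under 0.05. The smallest p in rTg4510 against littermates was that of Stxbp6, a syntaxin-binding protein also known as amisyn. It was at 63.1, 42.3, 47.2 and 57.97 CPM in rTg4510+3TC, at 48.9, 87.4, 39.6 and 44.4 CPM in rTg4510 and at 85.6, 99.8, 81.6 and 93.3 CPM in littermates. With rTg4510 F3 as the exception, every transgenic library was below every littermate, and the log2 fold change was -0.71 ± 0.21 in rTg4510 (edgeR adjusted p = 0.945) and -0.77 ± 0.21 in rTg4510+3TC (edgeR adjusted p = 0.341). Maml2, a Notch coactivator, was at -0.47 ± 0.20 and Dock10 at -0.54 ± 0.24 in rTg4510, with adjusted p of 0.945 each. Without rTg4510 F3, edgeR called Stxbp6 in rTg4510 (-1.03 ± 0.14, adjusted p = 0.0157) and in rTg4510+3TC (-0.78 ± 0.13, adjusted p = 0.0457), both against littermates. That fit called 0.05313% and 0.08265% of genes in these comparisons, and it leaves out the library just named as the exception. Without the 3 libraries with neighbouring-tissue markers 1 of the 9 genes was called in rTg4510 and 4 of 9 in rTg4510+3TC, all negative. Other cell type lists also held called genes in that fit against littermates. In rTg4510 these were 1 of 5 CA2, 1 of 7 neocortical and 2 of 5 microglia genes. In rTg4510+3TC they were 1 of 5 CA2, 1 of 7 neocortical, 3 of 5 microglia and 1 of 6 astrocyte genes.

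Relatives of the members were examined as fixed lists in rTg4510 against littermates, and edgeR called none of their genes. These lists include the members themselves (C1ql2, C1ql3, Trpc6, Dsp, Plk5 and Tdo2), so their medians are not separate from the member values. The C1q-like median is the value of C1ql3 itself. The median log2 fold change was -0.13 over 7 tested C1q-like proteins and receptors, in which C1ql1 was at 0.28 ± 0.23, the adhesion receptor Adgrb3 at 0.17 ± 0.11 and the kainate receptor subunit Grik2 at -0.26 ± 0.14. Of 6 tested TRPC channels the median was 0.06, and Trpc1 (0.27 ± 0.14) and Trpc7 (0.59 ± 0.31) had positive values where Trpc6 had a negative one. Of 9 tested desmosome genes the median was -0.13. Dsg2, a desmosomal cadherin, had a mean of 3.24 CPM in rTg4510, against 7.52 CPM in littermates, a log2 fold change of -1.21 ± 0.41 (edgeR adjusted p = 0.945; -0.92 ± 0.31 without rTg4510 F3), while Jup (plakoglobin) was at -0.03 ± 0.11. The 5 polo-like kinases had a median of 0.15 with Plk3 at -0.36 ± 0.23, and 10 tested tryptophan and kynurenine pathway genes had a median of 0.10.

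Of 7 EF-hand calcium-binding proteins, which include the member Calb1, the median was -0.03, the value of Calb1 itself, with Caln1 at 0.19 ± 0.11. The 9 activity-regulated genes had a median of -0.17. Among them Arc, the immediate-early gene of recently active granule and pyramidal neurons, had a mean of 100.3 CPM in rTg4510, against 223.0 CPM in littermates, a log2 fold change of -1.15 ± 0.47 (edgeR adjusted p = 0.945). Arc was at 73.4, 130.4, 121.4 and 76.1 CPM in rTg4510, against 83.8, 255.2, 430.1 and 122.9 CPM in littermates, so the groups overlap and littermate M2 is the highest of all. Without littermate M2 the log2 fold change was -0.61 ± 0.42. Littermate M2 also had the highest summed level of the 9 genes, 1183 CPM, against 409.9 to 725.4 CPM in the other littermates.

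Markers of other hippocampal neurons in rTg4510 against littermates had medians of 0.02 for 7 CA1 genes, -0.17 for 5 CA2 genes, -0.41 for 9 CA3 genes, -0.07 for 5 mossy cell genes, -0.13 for 8 newborn neuron and precursor genes and 0.02 for 8 interneuron genes, none of them called with all 12 libraries. The same medians in rTg4510+3TC against littermates were -0.06, 0.06, -0.13, 0.01, -0.06 and -0.07. Among the lists of other cells and neighbouring tissue, none of whose genes was called with all 12 libraries, choroid plexus had medians of -2.85 in rTg4510+3TC and -0.43 in rTg4510 relative to littermates, with 7 of 7 and 6 of 7 genes negative. Without the 3 libraries high in these markers they were -0.21 and -0.75. Myelin had medians of -0.32 in rTg4510+3TC and -0.61 in rTg4510, with 9 of 9 genes negative in both. Without the 3 libraries with neighbouring-tissue markers these were -0.20 and -0.22. Thalamic genes were at 0.56 in rTg4510+3TC and -0.47 in rTg4510, striatal genes at -0.32 and 0.38, and neocortical genes at -0.57 and 0.13. Those 3 lists moved without the same libraries to -0.43 and -0.32, to -0.27 and -0.10, and to -0.09 and -0.15. The medians were 0.06 and -0.07 for astrocytes, 0.32 and 0.27 for microglia, and -0.13 and 0.20 for meningeal fibroblasts, in the same order of groups. No marker of these lists was at 0 in all libraries of a group. Whether these levels have a part in the member values was not tested.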

How the data were processed

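The authors deposited 1 table of raw counts by gene symbol for the 12 libraries. Per the labels' protocols, polyA libraries were made with a TruSeq kit from Trizol-extracted RNA. STAR, DESeq2 and mm10 appear in the submitters' processing notes without version or role. Neither the annotation nor the use of strand in counting is stated there. Of 24411 rows, 27 carry dates in place of symbols (0.285% to 0.363% of counts) and were left out.

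Counts were TMM-normalised, filtered for low counts per group in filterByExpr (at least 10 counts, total of at least 15) and modelled with edgeR 4.0.16 under R 4.3.3, with group as the sole term over all 12 libraries. The common dispersion was 0.0817, with 4.01 prior and 9 residual degrees of freedom. Each contrast was tested with the quasi-likelihood test with Benjamini-Hochberg adjustment over all 16618 tested genes, and a gene was called at an adjusted p under 0.05. SE are the log2 fold change over the root of F. Correlations were tested with 100000 permutations. The fit was tested on simulated data, drawn at the same dispersion for all genes and without any library rich in neighbouring tissue. That test therefore does not cover such libraries. Replicates differed by more than counting noise (lowest chi-square per gene 16.6).

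Members and gene lists were chosen with earlier results of these data known, as was the omission of sex. All 8 members are named in every comparison. Of each pathway list up to 3 genes with the smallest p in rTg4510 against littermates were eligible, of cell type lists counts and medians, and the 6 genes most like the member score. A gene of the other dentate list is not reported here and was left out of that list's counts and scores. C1ql1, Jup, the ratio to Prox1 and its other denominators were chosen after their values were seen. Alternatives were DESeq2 size factors, no filter, at least 1 CPM in 4 libraries, DESeq2 1.42.0, limma-voom 3.58.1 with quality weights, sex as labelled or exchanged, the replicate code as a block, the 2 groups alone, each library left out, and the library sets named above. Those leaving out 2 libraries were added after seeing the data. Promoters came from RefSeq (GRCm38.p6), where 7 of 8 members had an entry, and exon lengths from GENCODE M21.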

Additional observations from a re-analysis of the deposited data

Results flagged for a closer look

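None of the 24 sets of 4 libraries (8 genes in 3 groups) held a library whose gap to its neighbour exceeded Dixon's critical value of 0.829 of the range. That includes rTg4510 F3, which was the lowest of all 12 libraries for Prox1, C1ql2, Dsp and Tdo2. The check used linear CPM in sets of 4, where a low library is bounded by 0 CPM and spread among the others lowers its value. The highest value was that of another low library, 0.792 for Tdo2 in rTg4510+3TC F2. For C1ql2, rTg4510 F3 at 1.17 CPM reached 0.428, and for Tdo2 at 0 CPM it reached 0.419. The lack of a flag therefore does not show that rTg4510 F3 is like its group.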

How the results depend on the processing

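With all 12 libraries, no alternative of test, filter, normalisation or covariate called a member, nor did leaving out any 1 library (0 to 0 in each comparison). Without the 3 neighbouring-tissue libraries 2 members were called in rTg4510+3TC against littermates and 4 over all transgenic libraries. Of 792 member values under alternatives 6 gained a call and 40 changed sign, the latter in 11 of 32 gene and comparison pairs. No member had been called in the fit of all 12 libraries, so none could lose a call. Genes called over the whole table, in rTg4510 against littermates, rTg4510+3TC against littermates and all transgenic libraries against littermates, numbered 22, 100 and 89 by DESeq2's Wald test and 15, 38 and 63 by limma-voom with quality weights. They numbered 36, 71 and 108 without the 3 neighbouring-tissue libraries, 0, 0 and 0 without the 3 libraries highest in Ttr, and 14, 26 and 38 without rTg4510 F3 and rTg4510+3TC F2. Without rTg4510 F3 and littermate M2, 20 were called over all transgenic libraries. In rTg4510+3TC against rTg4510 DESeq2 called 1 gene. Leaving out 1 library gave 4 to 9, 6 to 16 and 5 to 18 genes, and 0 to 0 in rTg4510+3TC against rTg4510; without rTg4510 F3 these counts were 9, 14 and 15. The replicate code as a block called 0 genes in all 3 comparisons with littermates and 0 members. Same-coded libraries deviated together at r of -0.253 to 0.175, so the codes were not taken as pairs. Under the block C1ql3 was at 0.06 in rTg4510 against littermates, Plk5 at -0.06 over all transgenic libraries, and Dsp at 0.04 and Trpc6 at -0.16 in rTg4510+3TC against rTg4510. With labelled or exchanged sex as a term, Tdo2 was at -0.04 and -0.03 in rTg4510+3TC against littermates, and Trpc6 at -0.04 and -0.02 in rTg4510+3TC against rTg4510. Without the neighbouring-tissue libraries Plk5 was at -0.02 over all transgenic libraries and C1ql2 at -0.39 in rTg4510+3TC against rTg4510, where it was also at -0.39 without rTg4510 F3 and rTg4510+3TC F2 and at -0.21 without rTg4510 F3 and littermate M2. Tdo2 was at 0.37 in rTg4510 and 0.47 over all transgenic libraries without the Ttr-high libraries, and at 0.15 and 0.24 without rTg4510 F3 and rTg4510+3TC F2. Without rTg4510 F3 and littermate M2 it was at -0.25 in rTg4510+3TC against littermates and at -0.12 in rTg4510+3TC against rTg4510. Leaving out 1 library gave -0.18 to 0.06 for Calb1 and -0.81 to 0.15 for Tdo2 in rTg4510 against littermates, -0.25 to 0.38 for Tdo2 and -0.26 to 0.08 for Plk5 in rTg4510+3TC against littermates, and -0.40 to 0.23 for Tdo2 over all transgenic libraries. In rTg4510+3TC against rTg4510 it gave -0.21 to 0.83 for C1ql2, -0.52 to 0.24 for Dsp, -0.12 to 0.83 for Tdo2 and -0.23 to 0.29 for Trpc6. The cause of these changes was not tested. The 4 libraries of each group limit precision. The SE reached 0.85 log2 units for Tdo2, the member with the fewest counts, and 0.69 for Dsp. In rTg4510 against littermates the SE of both genes was smaller without rTg4510 F3, as given above.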
